A study of Fundulus heteroclitus with 6 samples.

Results

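At 10 days post-fertilization (dpf), 92 isogroups had 10 or more reads in killifish embryos from Scorton Creek (SC) treated with PCB-126. They had no reads in either library of embryos treated with the solvent DMSO. An isogroup is a set of assembled contigs that the assembler treats as the transcripts of a single gene. The 92 were selected on their measured counts, with 0 reads in the DMSO library of SC, 0 in the DMSO library of New Bedford Harbor (NBH) and 10 or more in the PCB-126 library of SC. They are 0.405% of the 22732 isogroups in the table, and 4.03% of the 2283 isogroups with 10 or more reads in SC with PCB-126. Since these 3 libraries chose the isogroups, their values there are a description, and only the fourth library, NBH with PCB-126, was not used in the choice. In that library 64 of the 92 isogroups (69.6%) had no reads, 28 (30.4%) had reads, and 1 had 10 or more.

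PCB-126 is a dioxin-like polychlorinated biphenyl. It binds the aryl hydrocarbon receptor (AHR), a transcription factor that enters the nucleus with its partner ARNT and raises transcription of target genes, of which the cytochrome P450 gene CYP1A is the one most used as a marker of exposure. In fish embryos strong AHR activation is known for pericardial edema and defects of the heart and vessels. Killifish from NBH, a harbor contaminated with PCBs, are resistant to these effects, and SC served as the uncontaminated reference site.

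Embryos of both populations were exposed to DMSO or to 50 nM PCB-126. The methods give an exposure of 1 h from 4 h post-fertilization, whereas the labels give 6 h before sampling, and the methods are followed here. Each of the 4 libraries of 3'-anchored cDNA combined RNA of 3 pools of 20 whole embryos, and there was 1 library per condition, so no difference between conditions has a replicate check. All parents were fish collected at the sites, so that population and any carry-over from the parents' exposure cannot be told apart. In whole embryos, fewer cells of a type and less RNA per cell cannot be told apart either. The deposited values are raw counts of reads that matched 1 isogroup, and they summed to between 95410 (NBH with DMSO) and 132893 (SC with PCB-126) per library. The table gives isogroups by number only, without gene names or sequences. No member could therefore be assigned to CYP1A or to any other gene. The paper searched the reads with its probe sequences and lists CYP1A and the related gene CYP1B1 without reads in either DMSO library. Its CYP1A count in SC with PCB-126 exceeds 1476, the highest isogroup count in that library. Its CYP1B1 count there lies between the 150 reads of isogroup03702 and the 37 of isogroup11190, where no member lies. The members' counts are thus no upper limit for genes of this pattern, and why the counts differ was not tested. A count of 0 allows up to 3 reads, which is 2.42 reads per 100000 in the SC library with DMSO, 3.14 in NBH with DMSO and 2.43 in NBH with PCB-126. All intervals and limits cover counting error only.

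Among the 92 isogroups, 2 stood far above the others in the SC library with PCB-126. Isogroup00658 had 0 reads in SC with DMSO, 210 in SC with PCB-126, 0 in NBH with DMSO and 3 in NBH with PCB-126. Per library total, this is 158 reads per 100000 in SC with PCB-126 against 2.43 in NBH with PCB-126, a ratio of 65.1 (exact 95% interval 22.0 to 318). Isogroup03702 had 0 reads in SC with DMSO, 150 in SC with PCB-126 and 0 in both NBH libraries. With 3 reads standing in for the 0 in NBH with PCB-126, its level of 113 reads per 100000 in SC was 46.5-fold that in NBH. The lower end of the exact 95% interval was 37.4-fold, mostly because this interval allows a count of 0 more than 3 reads. These 2 isogroups held 360 of the 1561 reads that the 92 had in the SC library with PCB-126, or 23.1%.

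The next 3 by reads in SC with PCB-126 were isogroup11190 with 37 reads, isogroup16656 with 26 and isogroup08921 with 25, each with 0 reads in the other libraries. With 3 reads standing in for the 0 in the SC library with DMSO, isogroup11190 was 11.5-fold higher, isogroup16656 8.09-fold and isogroup08921 7.78-fold. The exact 95% lower limits, which allow a count of 0 more than 3 reads, were 8.90, 6.12 and 5.87. The rule used both SC libraries, so these folds and limits are a description and no test. The gap from 150 to 37 reads separated the first pair from all the rest.

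Most of the other isogroups lay close to the minimum. The median over the 92 was 12 reads in SC with PCB-126, with quartiles at 10 and 14.3, and 84 of the 92 had 10 to 19 reads. A further 6 had 20 to 37 reads. At a level that gives 10 reads in SC with PCB-126, the same share of the library would be 9.33 reads in SC with DMSO, 7.18 in NBH with DMSO and 9.30 in NBH with PCB-126. Against 0 reads in SC with DMSO, the ratio of a member with 10 reads had an exact 95% lower limit of 2.09. The limit covers counting error, and its median over the 92 was 2.59. The rule chose both counts of this ratio, so that no limit could lie below 2.09. Nothing is read from these limits. The 92 isogroups together made up 1.17% of the reads of the SC library with PCB-126, and 0.904% without the 2 of most reads.

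**Figure D1:**
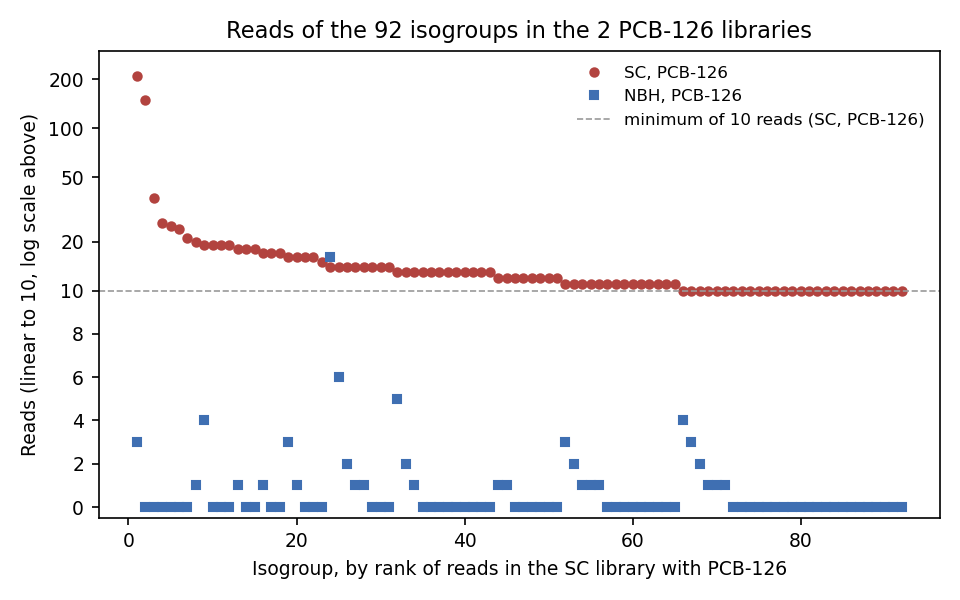
Reads (vertical axis, linear to 10 and logarithmic above) of each of the 92 isogroups in the SC (red circles) and NBH (blue squares) libraries with PCB-126, ordered by their reads in SC. Apart from 2 isogroups with 210 and 150 reads, the SC values lie between 10 and 37, and 64 of the NBH values are 0.

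The minimum of 10 reads lay within a gradual decline of counts. With 0 reads in both DMSO libraries, 658 isogroups had 1 read in SC with PCB-126 and 1188 had 2, from where the number fell to 152 with 5 reads. There were 54 isogroups with 8 reads and 28 with 9, just below the minimum. At the minimum itself stood 27 isogroups, and 14 had 11 reads. Of the 28 isogroups with 9 reads, 11 had reads in NBH with PCB-126, with at most 6, and of the 27 with 10 reads, 6 had, with at most 4. On the other edge of the rule, 65 isogroups had 10 or more reads in SC with PCB-126 and a single read in the DMSO libraries, 33 of them in SC and 32 in NBH. They had a median of 13 reads in SC with PCB-126 and a highest count of 80. Of these 65, 36 (55.4%) had reads in NBH with PCB-126, against 30.4% of the 92.

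**Figure D2:**
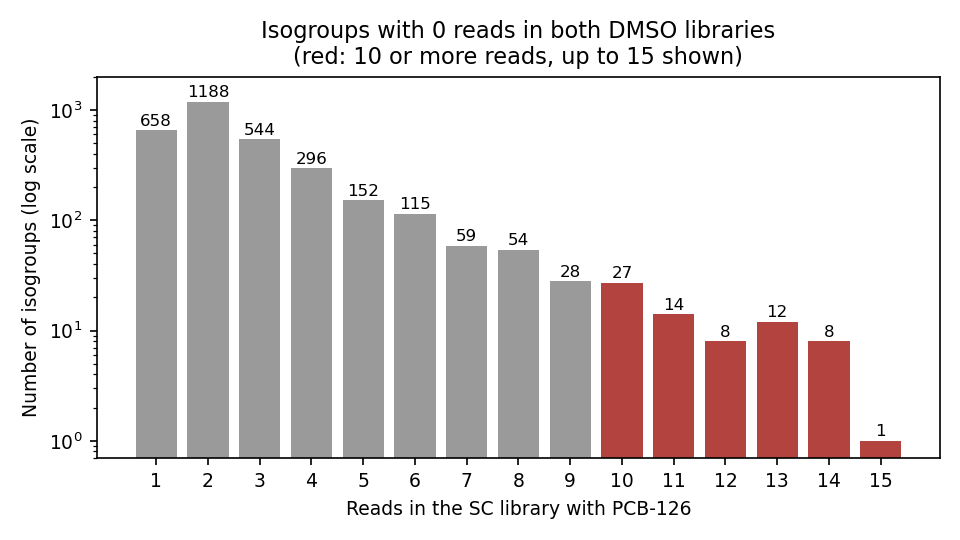
Number of isogroups (logarithmic axis) with 0 reads in both DMSO libraries, by their exact number of reads in SC with PCB-126, from 1 to 15. Red bars mark 10 or more reads, and the counts on either side of the minimum are 28 at 9 reads and 27 at 10.

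In NBH embryos with PCB-126, the library outside the rule, reads of the 92 isogroups were few. They summed to 70, or 0.0566% of that library, where the level in SC would have given 1452. Summed reads per library total were 20.7 times higher in SC than in NBH (exact 95% interval 16.3 to 26.8). This ratio includes the choice of high counts in SC and is no estimate for a new library. Without the 2 isogroups of most reads it was 16.7. Of the 28 isogroups with reads, 15 had a single read, 4 had 2, and 8 had 3 to 6. The 28 isogroups had a median of 13 reads in SC with PCB-126, and the 64 without NBH reads had a median of 12, so that both sets had like counts in SC.

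Isogroup09834 was the one member with 10 or more reads in both PCB-126 libraries. It had 0 reads in SC with DMSO, 14 in SC with PCB-126, 0 in NBH with DMSO and 16 in NBH with PCB-126. Its ratio of SC to NBH with PCB-126 was 0.814 (exact 95% interval 0.368 to 1.78), the lowest of the 92 and the only one with a larger share of the NBH library.

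The members of next most reads in NBH with PCB-126 were isogroup05254, with 14 reads in SC and 6 in NBH, and isogroup09195, with 13 and 5. Their ratios of SC to NBH were 2.17 (exact 95% interval 0.784 to 6.89) and 2.42 (0.809 to 8.67), and both intervals include 1. Isogroup00477 had 19 and 4 reads with PCB-126, a ratio of 4.42 (exact 95% interval 1.47 to 17.9). Isogroup06782 had 10 and 4 reads, a ratio of 2.33 (exact 95% interval 0.671 to 10.2). All these ratios have in their numerator the SC count that the rule required to be 10 or more, which raises them. Where the interval includes 1, a difference between the PCB-126 libraries was not detectable at this depth.

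Other isogroups with as many reads in SC with PCB-126 mostly had reads in NBH with PCB-126 as well. With 10 to 14 reads in SC, 21 of 69 members (30.4%) had NBH reads, against 723 of 808 other isogroups (89.5%). With 15 to 19 reads the values were 5 of 15 members (33.3%) and 365 of 383 others (95.3%). With 20 to 37 reads they were 1 of 6 members and 504 of 517 others. The members were chosen for 0 reads in 2 further libraries, and each of the others had at least 1 read in these, so the shares describe the 2 sets and are no test.

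Requiring no reads in SC with DMSO alone, and 10 or more in SC with PCB-126, gave 165 isogroups, for which neither NBH library entered the choice. Of these, 73 (44.2%) had reads in NBH with DMSO and 76 (46.1%) in NBH with PCB-126. Both libraries had reads of 48, the DMSO library alone of 25 and the PCB-126 library alone of 28, and these last 28 are the members with NBH reads. The summed level of the 165 was 279 reads per 100000 in NBH with DMSO and 186 in NBH with PCB-126, against 1921 in SC with PCB-126. NBH reads of these isogroups were thus about as frequent with DMSO as with PCB-126, and the DMSO library, which was the smaller, had the higher summed level.

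The number of isogroups also depended little on which pair of libraries had to be at 0. With 10 or more reads in SC with PCB-126, 92 isogroups had no reads in the 2 DMSO libraries, 89 had none in SC with DMSO and NBH with PCB-126, and 101 had none in the 2 NBH libraries. The 64 isogroups with reads in SC with PCB-126 alone are in all 3 sets. The remaining library had reads of 28, 25 and 37 isogroups, respectively, and 10 or more reads of 1, 0 and 5.

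Isogroups with 10 or more reads in a single library and none in the libraries of the other treatment were also found for the other libraries. There were 80 with 10 or more reads in NBH with PCB-126 and none with DMSO. There were 63 with 10 or more in SC with DMSO and none with PCB-126, and 55 with 10 or more in NBH with DMSO and none with PCB-126. As a share of the isogroups with 10 or more reads in the same library, these are 3.67%, 3.02% and 3.34%, against 4.03% for the 92. The libraries differ in depth, so that the number expected with each library thinned to 95410 reads was also computed. It was 41.7 with PCB-126 and 39.4 with DMSO in SC, and 42.1 with PCB-126 and 65.6 with DMSO in NBH. At equal depth, SC with PCB-126 thus lay within the range of the other libraries.

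The sets had the same median of 12 reads in the library that chose them and differed in their highest counts. With PCB-126 the highest counts were 210 and 150 in SC and 185 and 44 in NBH. With DMSO they were 21 and 20 in SC and 30 and 27 in NBH. Reads in the other library of the same treatment were found for 28 of the 92, 23 of the 80 (28.8%), 14 of the 63 (22.2%) and 7 of the 55 isogroups (12.7%). Only isogroup09834 was shared by the 92 and the 80, or 1.09% of the former and 1.25% of the latter. Over the whole table, 1319 of the 2283 isogroups with 10 or more reads in SC with PCB-126 (57.8%) also had 10 or more in NBH with PCB-126, and 267 of the 877 with 10 to 14 reads (30.4%) did.

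**Figure D3:**
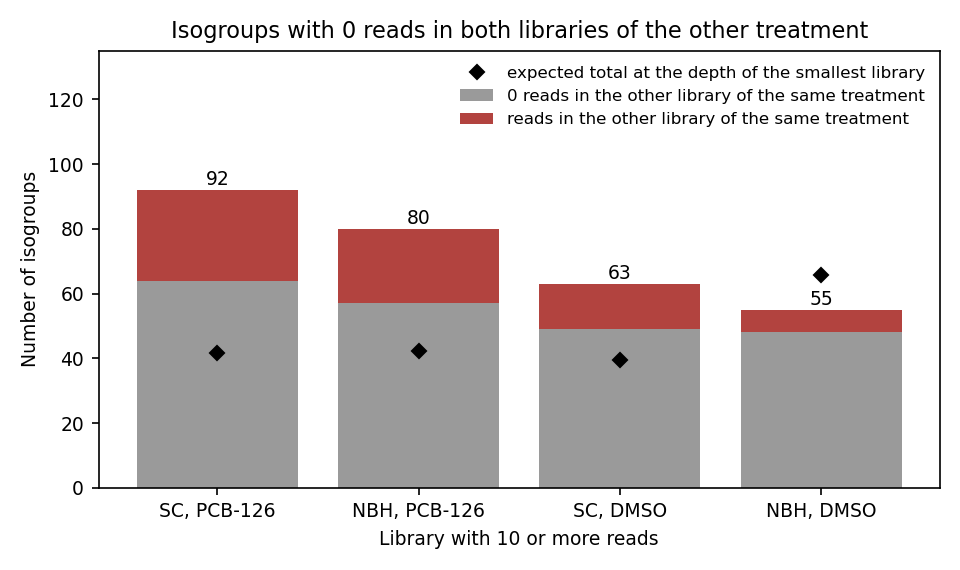
Number of isogroups with 10 or more reads in the library named below each bar and 0 in both libraries of the other treatment, split by whether the other library of the same treatment had reads. The 92 isogroups of SC with PCB-126 compare with 80, 63 and 55, and at the depth of the smallest library (diamonds) the expected numbers are 41.7, 42.1, 39.4 and 65.6.

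Fisher's exact test was run over the whole table for pairs of libraries with a sum of 10 or more reads per isogroup. Calls needed an adjusted p under 0.05 and a 2-fold or larger ratio of reads per library total. These tests compare single libraries and not the conditions. In SC, 12.0% of the isogroups tested were called higher with PCB-126 than with DMSO (495, with 450 called lower). All 92 were called, which the rule nearly fixes and from which nothing is read. Between the PCB-126 libraries, 13.4% of the isogroups tested were called higher in SC than in NBH (566, with 568 called lower). Of the 92, which were chosen for high counts in SC, 84 were called higher in SC. None of these 84 calls held in the exact test of edgeR, which called 0 of the 92 between the PCB-126 libraries. Of all 4234 isogroups tested there, it called 1. At an unadjusted p under 0.05 this test had 68 of the 92 and 419 of the 4234. The 92 were chosen for high counts in SC, so that nothing is read from the 68. Between the SC libraries the edgeR test called 1 of the 4135 isogroups tested, and this was isogroup00658, a member of the 92. The rule chose both counts of isogroup00658 in this pair, so that nothing is read from this call. The scatter in the edgeR test was estimated without replicates, from departures of the 4 libraries from additive effects of population and treatment. A response to PCB-126 in 1 population only therefore counts as scatter, and the test is no check against replicates. In NBH, 11.8% of the isogroups tested were called higher with PCB-126 than with DMSO in Fisher's test (437, with 414 called lower). Of the 92, only isogroup09834 had enough reads for this test, and it was called. Its 0 reads in the DMSO library were fixed by the rule, so that nothing is read from this call either.

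The members were spread otherwise along the numbering of the isogroups than abundant isogroups were. The mean number of reads in SC with PCB-126 fell along the numbering, from 16.0 per isogroup for numbers 1 to 5683 to 1.63 for numbers 17050 to 22732. The order that the assembler gave the isogroups is not stated by the sources used here. Numbers 1 to 5683 held 72.4% of the isogroups with 10 or more reads in SC with PCB-126 and 12 of the 92 members (13.0%). Numbers 5684 to 11366 held 30 members, 11367 to 17049 held 33, and 17050 to 22732 held 17. The median number was 12554 for the members and 2853 for all isogroups with 10 or more reads in that library. The same was seen among isogroups of 10 to 37 reads in SC with PCB-126, which hold all members but the 2 of most reads. Members made up 10 of 1257 of these (0.796%) in numbers 1 to 5683, 30 of 361 (8.31%) in 5684 to 11366, 33 of 142 (23.2%) in 11367 to 17049 and 17 of 38 (44.7%) in 17050 to 22732. The rule left the members without DMSO reads, whereas all other isogroups of this range had some. Like reads in SC with PCB-126 therefore do not make the summed reads alike. The later numbers of the members may follow from the rule, and these shares are no test. Whether they hold at like summed reads was not tested.

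Reads in NBH with PCB-126, which the rule did not use, were also unlike along the numbering. They are part of the summed reads of an isogroup, so that they may not be independent of its number either. Of the 12 members with numbers 1 to 5683, 11 (91.7%) had NBH reads, and isogroup03702 was the exception. Of the 80 members with higher numbers, 17 (21.3%) had NBH reads. Among other isogroups with 10 to 37 reads in SC with PCB-126, the share with NBH reads was 97.4% in numbers 1 to 5683, 84.3% in 5684 to 11366, 75.2% in 11367 to 17049 and 81.0% in 17050 to 22732. Median reads of the members in SC with PCB-126 were 14 in numbers 1 to 5683 and 12, 12 and 11 in the later ranges. Among the members, 1 pair had neighbouring numbers, isogroup07398 with 13 reads and isogroup07399 with 14 reads in SC with PCB-126 and no reads elsewhere, named here after their values were seen.

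**Figure D4:**
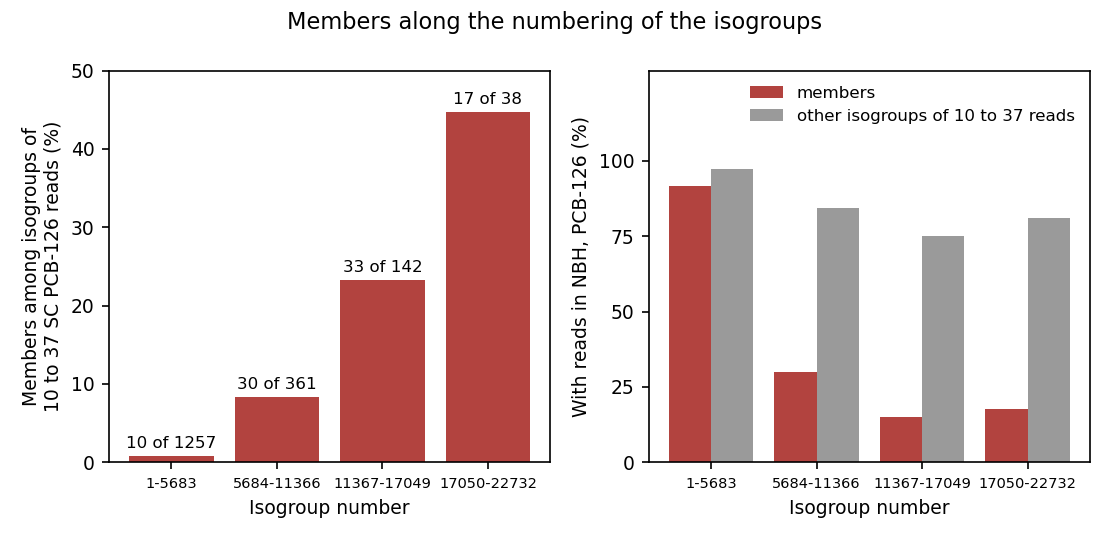
Left, share of members among isogroups with 10 to 37 reads in SC with PCB-126 in 4 ranges of isogroup number, rising from 10 of 1257 to 17 of 38. The rule left members without DMSO reads, unlike the other isogroups, so that this rise may follow from the rule. Right, share with reads in NBH with PCB-126 among all members (red) and among other isogroups with 10 to 37 reads (grey), with 91.7% of members in numbers 1 to 5683 and 15.2% in 11367 to 17049.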

How the data were processed

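RNA of 10-dpf embryos was sequenced by pyrosequencing from 4 libraries, 1 per population and treatment. The deposited table holds raw counts of uniquely matching reads per isogroup, without normalization. The counting program is not stated there or in the methods. In all, 7 cells at the ends of the columns were blank and were read as 0. The 2 shotgun libraries were not used.

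The isogroups and the comparisons were chosen with earlier results of these data known. Isogroups were named by the rank of their reads, the 5 highest in each PCB-126 library. Library size was the total count. Intervals of ratios are exact 95% Clopper-Pearson intervals. For folds against a count of 0, 3 reads stood in for the 0, and these folds leave out counting error in the other count. Exact lower limits are the lower ends of the Clopper-Pearson intervals. Pairs of libraries were compared by Fisher's exact test (two-sided) with Benjamini-Hochberg adjustment over all isogroups tested. The procedure was tested on simulated counts that had counting error only. These had no scatter between libraries, so that the simulation gives no error rate for the real libraries. Expected numbers at equal depth are sums of hypergeometric probabilities. Alternatives were other minimum counts, library sizes from TMM and DESeq2, and the exact test of edgeR with an estimated dispersion. The lists of AHR and marker genes could not be used without gene names. Python 3.11.15, scipy 1.17.1, R 4.3.3, edgeR 4.0.16 and DESeq2 1.42.0 were used.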

Additional observations from a re-analysis of the deposited data

How the results depend on the processing

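No paired analysis was possible because each condition has 1 library. The number of isogroups depended on the rule. It was 500 at a minimum of 5 reads, 8 at 20 and 3 at 30, and 157 with at most 1 DMSO read. It was 41.7, as an expected number, with libraries thinned to the smallest. With 0 reads required in the DMSO library of SC only it was 165, and of NBH only 224, 2 rules added after seeing the data. Isogroups with reads in NBH with PCB-126 then numbered 133 of the 500 (26.6%), 2 of the 8, 1 of the 3 and 64 of the 157 (40.8%). Of the 92, 13 had 2 or more NBH reads and 1 had 10 or more. The ratio of summed reads stayed between 16.7 and 26.7 under all 6 alternatives, 2 of them added after seeing the data.

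Over the whole table, 945 isogroups were called in either direction between the SC libraries, 851 between those of NBH and 1134 between those with PCB-126. At least 30 reads left 225, 204 and 267, since fewer isogroups are tested, and no minimum left 608, 611 and 782. The exact test of edgeR adds scatter between libraries, with a coefficient of variation of 56.7%. This scatter was estimated without replicates, so that a response in 1 population only counts towards it. The test called 1 between the SC libraries (isogroup00658, higher with PCB-126) and 0 between those of NBH (309 at an unadjusted p under 0.05). Between those with PCB-126 it called 1, which was lower in SC and not among the 92. The rule chose the counts of isogroup00658 in both SC libraries, so that nothing is read from its call. Other library sizes moved no count of calls by more than 1.5 times.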
